A study of Homo sapiens with 6 samples.

Results

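The genes described here encode respiratory complexes II, III and IV, cytochrome c and the factors that build these complexes. They are a fixed list of 58 nuclear genes named by symbol, drawn up with earlier results of these data known. Of the 58, 54 had at least 1 named probe above background (detection p under 0.01) on 3 or more of the 6 arrays, out of 9841 genes that met the same condition. No probe was listed for SDHB, UQCRFS1, COX18 and PET117, which were not analysed here. All 54 were detected on all 6 arrays, so none entered through one group alone.

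Cells were PC3, an established line of human prostate cancer, and all samples carry a construct for inducible PGC1A, a coactivator of transcription. In the group P_DOX the cells were given doxycycline for 2 passages to switch PGC1A on, and in the group M_DOX they were not. Each group had 3 arrays, and total RNA was hybridised to Illumina bead arrays. Neither separate cultures nor a single clone is stated in the labels, so each p-value reflects variation among these 3 and 3 samples, part or all of which may be technical. Cells given doxycycline without the construct were not analysed here, so doxycycline and PGC1A cannot be told apart.

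Electrons from succinate enter the respiratory chain through complex II (succinate dehydrogenase), which also works in the citric acid cycle. Complex III takes electrons from ubiquinol and passes them to cytochrome c, a small soluble protein, and complex IV (cytochrome c oxidase) hands them to oxygen. Complexes III and IV pump protons and complex II does not. PGC1A is known for raising the transcription of such genes in muscle, brown fat and other oxidative tissue, through partners that include the receptor ERR-alpha (ESRRA) and the nuclear respiratory factor NRF1.

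The arrays detected 15437 to 16012 probes in P_DOX and 15029 to 15841 in M_DOX. P_DOX replicate 2 lay apart on the first principal component (35.3% of the variance), at -20.1, with the other 5 arrays at -2.89 to 11.1. Without that array 1 member, COXFA4, was called, 46 members were above 0 and the median change was 0.23. The PPARGC1A probe was close to background at 5.36 ± 0.33 in P_DOX and 5.32 ± 0.34 in M_DOX (log2 signal, SD, n = 3 each), and whether it lies within the sequence of the construct is unknown here. It therefore gives no check of the labels. Of the markers for epithelial cells and PC3, KRT8, KRT19, EPCAM, CDH1 and VIM were detected on all 6 arrays. KRT18, also on that list, had a listed probe but did not pass the detection filter. Of 6 leukocyte markers only CD14 and CD68 were tested and of 5 endothelial markers only PECAM1, while the fibroblast markers COL1A2, LUM and PDGFRA were detected on all 6 arrays. The fibroblast markers COL3A1 and DCN had listed probes but did not pass the filter. Median fibroblast signals per array ran from 8.02 to 8.28 in P_DOX and from 8.05 to 8.26 in M_DOX, and the 4 fibroblast genes tested moved in different directions, with LUM at 0.33, COL1A2 at -0.03, COL1A1 at -0.18 and PDGFRA at -0.40. No marker passed the test between the groups, and the part other cells play in the results was not tested.

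Cytochrome c and 2 subunits of complex IV, COX7B and COXFA4, rose by about 1.8-fold in P_DOX, and no member was called lower. Values are log2 signals after background correction and quantile normalization, and changes are log2 fold changes of P_DOX over M_DOX, so a change of 1 is a doubling. In RNA from whole cultures, more RNA per cell and a larger share of expressing cells cannot be told apart. At an adjusted p under 0.05 over all genes (limma, Benjamini-Hochberg), 3 of 54 members were higher and 0 lower. Over all 9841 genes 0.437% were higher and 0.102% lower by the same rule. At an unadjusted p under 0.05 by limma, 26 members were higher and 0 lower, against 8.09% of all genes higher and 6.61% lower.

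The replicate numbers in the titles paired the arrays across the groups, as the method section sets out. With replicate number as a block in the limma fit, 10 members were higher at an adjusted p under 0.05 and 0 lower, where 1.35% of all genes were higher and 0.447% lower. These 10 held the 3 named above and added UQCRB, UQCRC2, COX14, UQCC1, COX20, COX6B1 and SDHA. Most members moved less. In 32 of 54 the P_DOX arrays all lay above the M_DOX arrays and in 0 all below, where 10.2% of all genes lay wholly above and 11.3% wholly below. A positive change was seen in 47 of 54, against 43.4% of all genes.

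**Figure D1:**
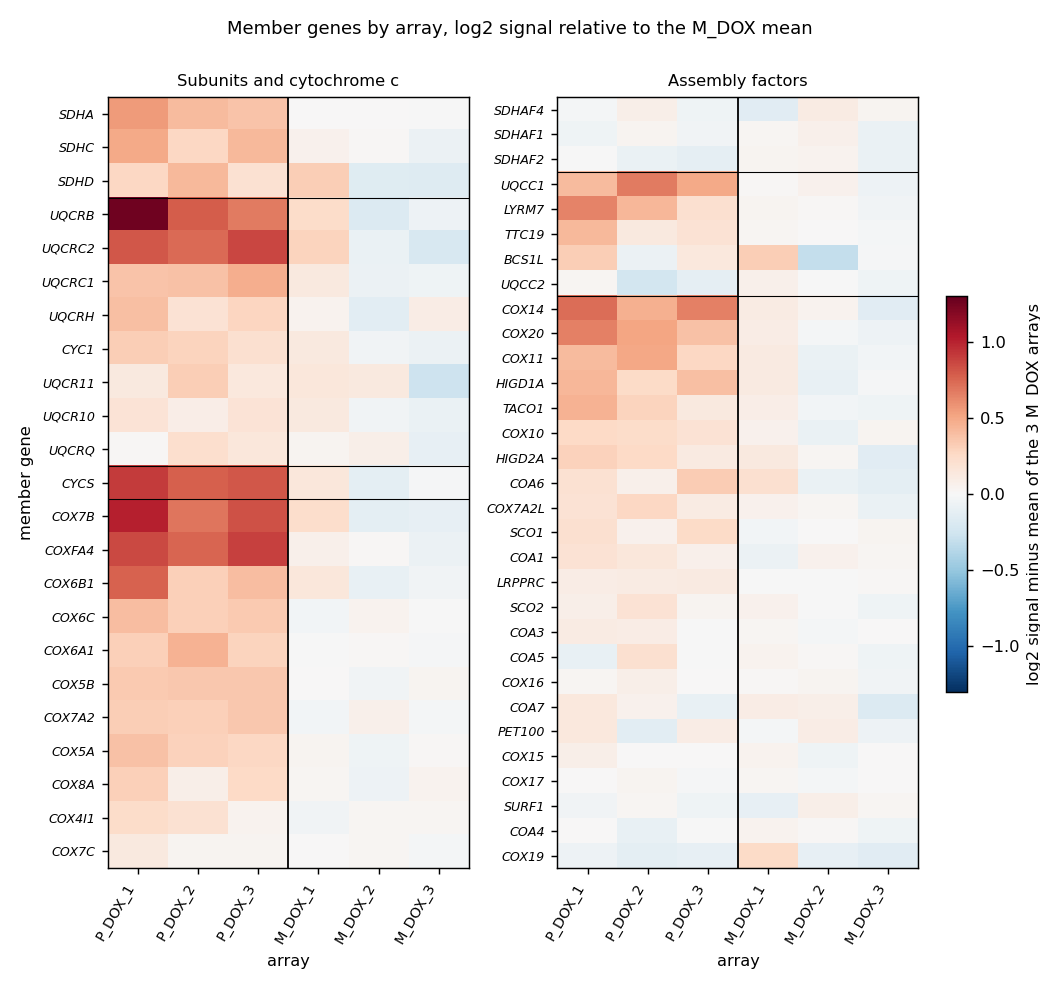
Log2 signal of each of the 54 member genes (rows, grouped by class) on each array (columns, P_DOX on the left), relative to the mean of the 3 M_DOX arrays, as a colour scale. UQCRB, UQCRC2, CYCS, COX7B and COXFA4 are the darkest rows among the subunits, and the complex II assembly factors stay near 0 on all arrays.

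Cytochrome c, CYCS, carries electrons between complexes III and IV and triggers caspase activation when released into the cytosol. Its log2 signal was 7.56, 7.43 and 7.47 on P_DOX replicates 1 to 3, against 6.80, 6.53 and 6.64 on M_DOX replicates 1 to 3. The groups did not overlap, and the lowest P_DOX array lay above the highest M_DOX array. CYCS rose 1.78-fold (log2 change 0.83, SE 0.0951, adjusted p = 0.0291 by limma). Without background correction the change was 0.63 (adjusted p = 0.00952).

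Among the complex IV subunits, all 11 had P_DOX arrays wholly above the M_DOX arrays, against 10.2% of all genes. The median change of these subunits was 0.35, from 0.07 to 0.84. COX7B, a small nuclear-encoded subunit, had log2 signals of 9.79, 9.48 and 9.61 in P_DOX, against 9.01, 8.65 and 8.68 in M_DOX. Replicate 1 was the highest array in both groups. COX7B rose 1.80-fold (log2 change 0.84, SE 0.127, adjusted p = 0.0438 by limma).

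COXFA4, long listed as the complex I subunit NDUFA4 and now counted with complex IV, had log2 signals of 11.46, 11.35 and 11.48 in P_DOX, against 10.66, 10.61 and 10.52 in M_DOX. The gap between the groups was several times the spread within either. COXFA4 rose 1.78-fold (log2 change 0.83, SE 0.0823, adjusted p = 0.0221 by limma). Leaving out any 1 array ended the calls of CYCS (adjusted p from 0.0512 to 0.131) and COX7B (0.0605 to 0.185), while their changes stayed at 0.77 to 0.90 and 0.76 to 0.96 and the whole table gave 1 to 7 genes higher in these smaller fits. COXFA4 was still called without P_DOX replicate 2 (adjusted p = 0.0358) and in no other of these 6 limma fits (up to 0.123).

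COX6B1, a subunit that faces the intermembrane space where cytochrome c docks, had log2 signals of 9.99, 9.54 and 9.62 in P_DOX, against 9.37, 9.13 and 9.17 in M_DOX. Replicate 1 was again the highest in both groups. Its change of 0.49 did not pass without the block (adjusted p = 0.167 by limma) and passed with it (adjusted p = 0.0445), the only alternative of 16 that called it.

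A tight set followed, with changes of 0.35 in COX6C, COX6A1 and COX5B, 0.33 in COX7A2 and 0.32 in COX5A. COX5B, one of the subunits around the catalytic core, shows how narrow these differences were. It had log2 signals of 12.16, 12.17 and 12.18 in P_DOX, against 11.83, 11.78 and 11.86 in M_DOX. The groups stood clear of each other, yet the adjusted p was 0.113 by limma, and for the 5 genes it ran from 0.113 to 0.132. The 3 smallest changes were in COX8A (0.21), COX4I1 (0.16) and COX7C (0.07). COX4I1, the subunit through which ATP is known to inhibit the enzyme, had log2 signals of 14.09, 14.05 and 13.90 in P_DOX, against 13.80, 13.87 and 13.87 in M_DOX. Its P_DOX replicate 3 lay just above the highest M_DOX array. COX4I1 also had the highest raw intensity among the members' probes, up to 17650 on a table that reaches 30152.

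**Figure D2:**
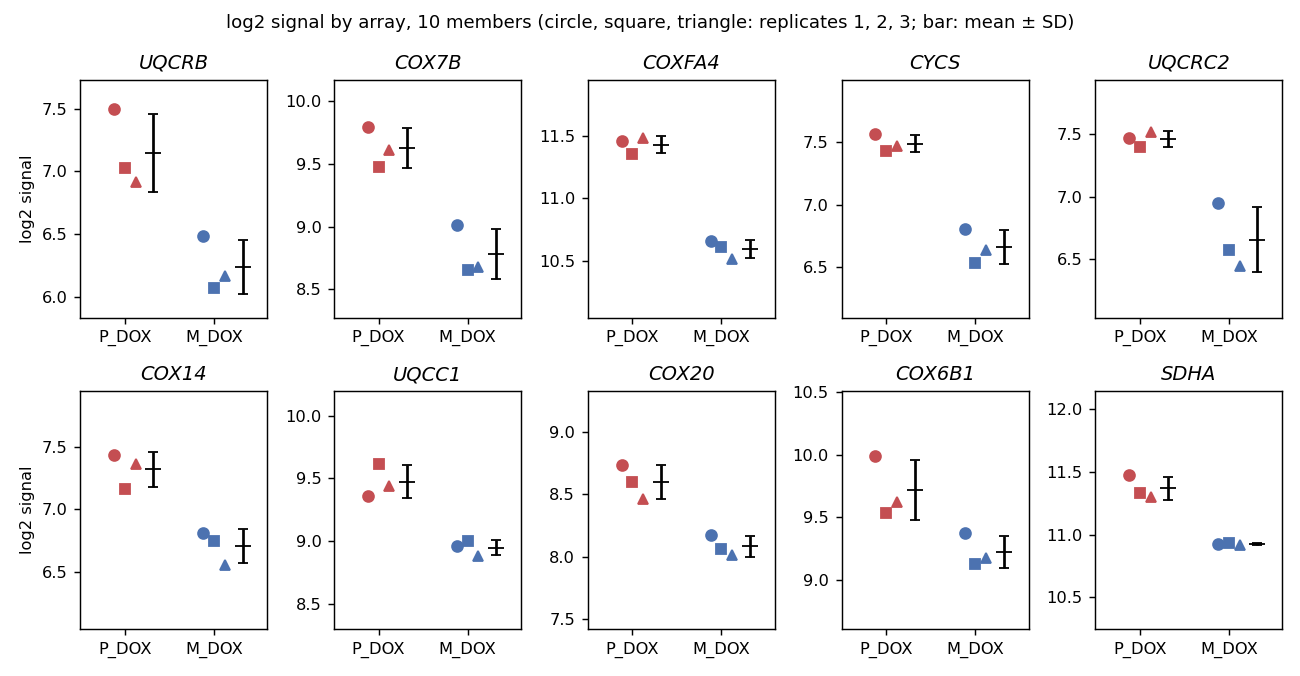
Log2 signal (y axis, each panel spanning the same range of log2 units) on each array for the 10 members called with or without the replicate block, P_DOX left and M_DOX right, with circle, square and triangle for replicates 1, 2 and 3 and a bar for mean ± SD (n = 3). In every panel the 3 P_DOX arrays lie above the 3 M_DOX arrays.

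For complex III, 8 subunits were tested and all 8 had a positive change, with a median of 0.28. In 5 of the 8 the P_DOX arrays lay wholly above the M_DOX arrays, against 10.2% of all genes. UQCRB, a small subunit near the ubiquinone site, had the largest change of all members on its brightest probe after background correction. Without that correction UQCRB was at 0.65, below COXFA4 (0.82) and COX7B (0.79). Its log2 signals were 7.50, 7.02 and 6.91 in P_DOX, against 6.48, 6.07 and 6.17 in M_DOX, with replicate 1 highest in both groups. The change of 0.91 (SE 0.172) did not pass in limma without the block (adjusted p = 0.0811) and passed with it (adjusted p = 0.0164). Over the 16 alternatives its adjusted p ran from 0.0164 to 0.272.

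UQCRC2, a core protein of complex III, had log2 signals of 7.47, 7.40 and 7.52 in P_DOX, against 6.95, 6.57 and 6.45 in M_DOX. The P_DOX arrays were close together and the M_DOX arrays spread, with replicate 1 highest. The change of 0.80 (SE 0.131) missed the threshold narrowly (adjusted p = 0.0502 by limma) and passed with the block (adjusted p = 0.0377). In all, 9 of the 16 alternatives called UQCRC2, among them the fit without M_DOX replicate 1 (change 0.95, adjusted p = 0.0475). Without background correction its change was 0.61.

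The other core protein, UQCRC1, was at 0.41 (adjusted p = 0.115 by limma), from 12.13, 12.14 and 12.24 in P_DOX against 11.90, 11.69 and 11.71 in M_DOX. UQCRH, the hinge protein that contacts cytochrome c1, was at 0.29 and CYC1, cytochrome c1 itself, at 0.27, both without overlap of the groups. The groups overlapped in the small subunits UQCR11 (0.20), UQCR10 (0.15) and UQCRQ (0.13).

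Of the 4 complex II subunits, 3 were tested, and their changes of 0.44, 0.40 and 0.30 gave a median of 0.40. SDHA, the flavoprotein that oxidises succinate, had log2 signals of 11.48, 11.33 and 11.30 in P_DOX, against 10.93, 10.93 and 10.92 in M_DOX. The M_DOX arrays were nearly identical and all P_DOX arrays lay above them. The change was 0.44 (SE 0.0816, adjusted p = 0.076 by limma, and 0.0485 with the block). The membrane anchors were SDHC, at 10.38, 10.16 and 10.31 in P_DOX against 9.94, 9.91 and 9.81 in M_DOX, and SDHD. SDHC was at 0.40 (adjusted p = 0.12 by limma). SDHD was at 0.30 (adjusted p = 0.393 by limma), and its groups overlapped because M_DOX replicate 1, at 8.51, lay among the P_DOX arrays at 8.46, 8.61 and 8.38.

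**Figure D3:**
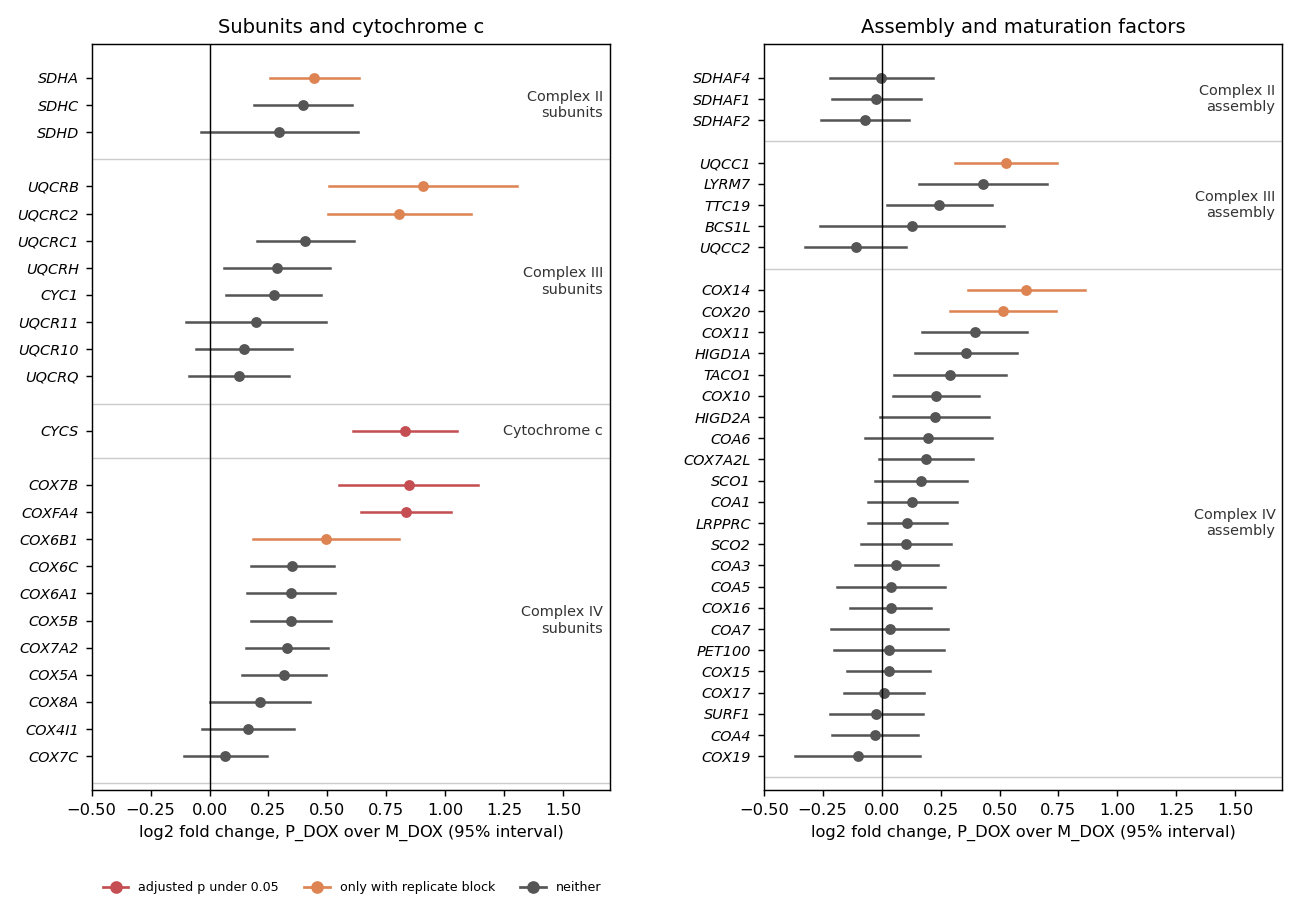
Log2 fold change of P_DOX over M_DOX (x axis) with its 95% interval from limma for each of the 54 members, subunits and cytochrome c on the left and assembly factors on the right. Red marks an adjusted p under 0.05 (CYCS, COX7B and COXFA4), orange the 7 genes that passed only with the replicate block, and grey the rest.

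Of the 31 assembly and maturation factors tested, 0 passed in limma without the block and 3 passed, all higher, with it. Over all genes 0.437% were higher without the block and 1.35% with it. At an unadjusted p under 0.05 by limma without the block, 9 of the 31 factors were higher and 0 lower. The shares of all genes there were 8.09% higher and 6.61% lower. COX14, which works with COA3 on newly made COX1, had log2 signals of 7.43, 7.16 and 7.36 in P_DOX, against 6.81, 6.75 and 6.55 in M_DOX. Its change of 0.61 had an adjusted p of 0.0615 by limma, and 0.0435 with the block. COX20, a chaperone of COX2, had log2 signals of 8.73, 8.60 and 8.47 in P_DOX, against 8.18, 8.06 and 8.01 in M_DOX. Its change was 0.52 (adjusted p = 0.0782 by limma, and 0.037 with the block). In both genes all P_DOX arrays lay above all M_DOX arrays.

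UQCC1, the last of these, is needed for making cytochrome b of complex III. It had log2 signals of 9.358, 9.618 and 9.442 in P_DOX, against 8.962, 8.999 and 8.878 in M_DOX, and its change was 0.53 (adjusted p = 0.0665 by limma, and 0.041 with the block). The genes COX14, COX20, UQCC1 and SDHA were each called in 5 of the 16 alternatives. UQCC2, the partner of UQCC1, was at -0.11 (adjusted p = 0.626 by limma), with 10.97, 10.71 and 10.84 in P_DOX against 11.01, 10.94 and 10.89 in M_DOX. These partners lay at opposite ends of the complex III assembly factors, although the difference between them was not tested. Of the factors that serve the Rieske iron-sulfur protein, LYRM7 was at 0.43 and TTC19 at 0.25, both without overlap, and BCS1L at 0.13 with overlap. BCS1L had the same order of replicates in both groups, at 9.21, 8.81 and 9.01 in P_DOX against 9.20, 8.58 and 8.87 in M_DOX.

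The 3 complex II factors lay near 0, with SDHAF4, which chaperones the flavoprotein, at -0.0006, SDHAF1, which serves the iron-sulfur subunit, at -0.02 and SDHAF2, which helps attach the flavin to SDHA, at -0.07. SDHAF2 had 11.09, 11.01 and 10.98 in P_DOX against 11.14, 11.14 and 11.02 in M_DOX. The 95% intervals reached from -0.26 to 0.12 for SDHAF2, from -0.21 to 0.17 for SDHAF1 and from -0.22 to 0.22 for SDHAF4. Those of the subunits reached from 0.26 to 0.63 for SDHA, from 0.19 to 0.60 for SDHC and from -0.04 to 0.63 for SDHD, and the difference between subunits and factors was not tested.

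Complex IV has the longest list of factors, and 23 of 25 were tested, with a median of 0.11 and a range from -0.10 to 0.61. Where 10.2% of all genes had P_DOX arrays wholly above the M_DOX arrays, 10 of these factors did. Those that make heme a split, with COX10, the heme O synthase, at 0.23 without overlap and COX15, the heme A synthase, at 0.03 with overlap. Of the copper handling factors, COX11 was at 0.40 and SCO1 at 0.17, both without overlap, COA6 at 0.20 and SCO2 at 0.10. COX17, the copper chaperone that supplies SCO1 and SCO2, was at 0.01, and COX19 at -0.10. COX17 was flat across all 6 arrays, at 11.032, 11.054 and 11.010 in P_DOX against 11.050, 10.996 and 11.024 in M_DOX. Its 95% interval ran from -0.16 to 0.18, and the sign turned under another scaling.

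Factors for the mitochondrially encoded core also ranged widely. TACO1, the translational activator of COX1, was at 0.29 and LRPPRC, which stabilises mitochondrial mRNA, at 0.11, both without overlap. LRPPRC had 10.34, 10.35 and 10.36 in P_DOX against 10.23, 10.23 and 10.26 in M_DOX, so a small change was outside the spread of its own arrays although its adjusted p was 0.527 by limma. COX16, which helps mature COX2, was at 0.04, COA3 at 0.06 and SURF1, mutated in Leigh syndrome, at -0.02. Of the other assembly factors, COA1 was at 0.13, COA5 at 0.04, COA7 and PET100 at 0.03 and COA4 at -0.03. The hypoxia-inducible domain proteins HIGD1A and HIGD2A were at 0.36 and 0.23, and COX7A2L, which joins complexes III and IV into supercomplexes, at 0.19.

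Taking subunits with cytochrome c against assembly factors, the medians were 0.35 over 23 genes and 0.11 over 31, where the median of all genes tested was -0.03. With each array scaled to its 75th percentile in place of quantiles the 2 medians were 0.30 and 0.045, and that of all genes -0.07. A change of 0.5 or more was measured in 5 subunits and 3 assembly factors, and one under 0.2 in 5 subunits and 21 assembly factors. Without background correction those 3 factors fell under 0.5, with COX14 and COX20 at 0.46 and UQCC1 at 0.49. The 5 subunits, with cytochrome c among them, were then at 0.61 to 0.82. Relative to the M_DOX mean, the median subunit stood at 0.37, 0.31 and 0.34 on P_DOX replicates 1 to 3 and the median assembly factor at 0.14, 0.09 and 0.09. On M_DOX replicates 1 to 3 they stood at 0.055, -0.043 and -0.049 for subunits and at 0.046, 0.0023 and -0.054 for assembly factors. The order of the medians was the same on each P_DOX array, and the difference was not tested, since the genes were chosen by class with earlier results of these data known. All 23 subunits kept a positive change in each of the 16 alternatives, also without P_DOX replicate 2. The detection filters, single-probe fit, intensity trend and block left these changes as they were. Those settings could not turn a sign.

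**Figure D4:**
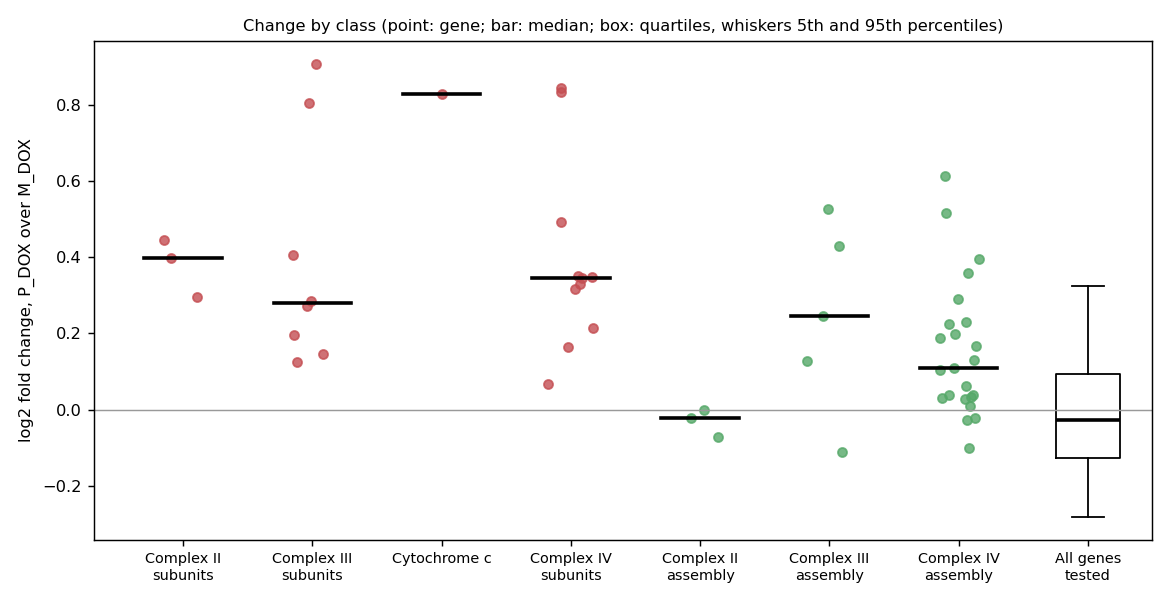
Log2 fold change of P_DOX over M_DOX (y axis) of each member gene (points) by class, with class medians as bars, beside a box of all 9841 genes tested with whiskers at the 5th and 95th percentiles (-0.28 and 0.33). The subunit classes have medians of 0.28 to 0.40 and cytochrome c lies at 0.83, while the complex II assembly factors lie at the level of the box.

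For 10 members 2 or 3 probes were tested, and these values show how far a gene's change depends on the probe. Probes of SDHA (0.44 and 0.50) and SDHC (0.40 and 0.43) were close to one another, and those of UQCC1 were at 0.53, 0.46 and 0.31. UQCRB was the least even, with 0.91 on its brightest probe (SE 0.172), 0.41 on a probe detected on 3 arrays and 0.14 on the last. Both weaker UQCRB probes were near background, at log2 signals of 4.81 to 5.59, so how far they disagree with the brightest is uncertain. With the mean of its probes UQCRB was at 0.48 (adjusted p = 0.105 by limma). HIGD1A ran the other way, with 0.36 and 0.33 on probes of 1 transcript record and 0.80 on the probe of another (adjusted p = 0.053 over all probes by limma). That HIGD1A probe had 7.34, 6.96 and 7.08 in P_DOX against 6.55, 6.15 and 6.29 in M_DOX, a clear gap with replicate 1 highest in both groups. LYRM7 was at 0.43 on the bright probe and 0.07 on a probe near background. UQCR10 had 0.15 on the brightest probe and 0.29 and 0.31 on those of another transcript record, and UQCRH 0.29 and 0.48. Only COX15 had probes of opposite sign, at 0.03 and -0.001, the latter near background. SDHAF1 lay below 0 on all its probes (-0.02, -0.01 and -0.12), of which all but the brightest, at -0.02, were near background.

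**Figure D5:**
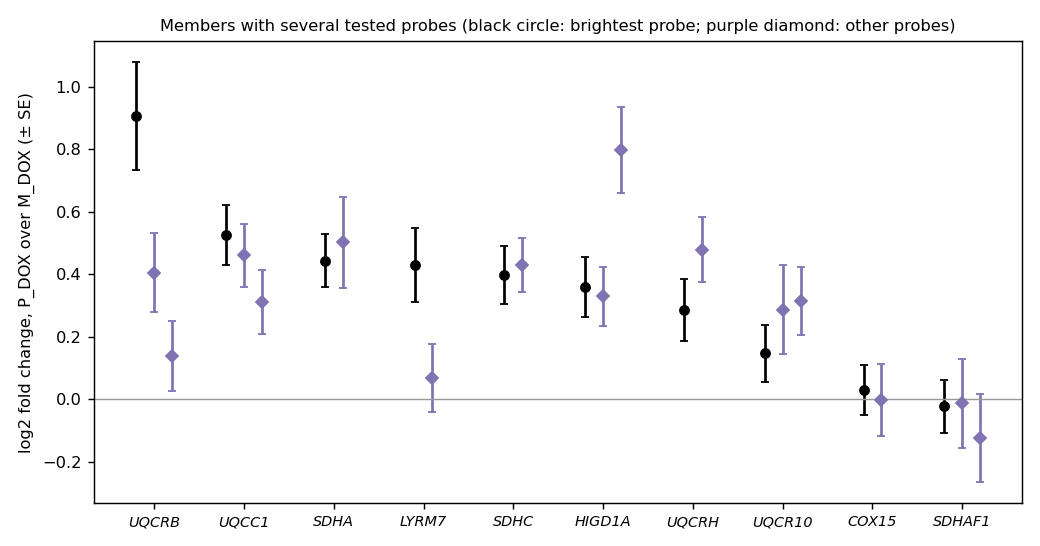
Log2 fold change of P_DOX over M_DOX with its SE (y axis) for each tested probe of the 10 members with several tested probes, the brightest probe as a black circle and the others as purple diamonds. UQCRB, whose weaker probes were near background, and HIGD1A show the widest gaps between their probes, and SDHA and SDHC among the narrowest.

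Paralogs with both genes tested formed 4 pairs, compared by the difference in log2 signal within each array. An exact permutation test of 3 arrays against 3 cannot go below p = 0.1, and values were adjusted over the 4 pairs. UQCRHL, a copy of UQCRH, was at 0.79 (adjusted p = 0.0539 by limma) and UQCRH at 0.29, a difference of changes of 0.50 without overlap (exact p = 0.1, adjusted p = 0.267). The 2 genes are nearly identical, and what their probes share was not analysed here, so these values are uncertain. HIGD1A exceeded HIGD2A by 0.13 (exact p = 0.2) and COX7A2 exceeded COX7A2L by 0.14 (exact p = 0.2), both with overlap and an adjusted p of 0.267. SCO1 and SCO2 differed by 0.07 (exact p = 0.7). Within replicate numbers 1 to 3, a comparison added after the data were seen, the P_DOX minus M_DOX difference was 0.14, 0.12 and 0.14 for HIGD1A over HIGD2A. It was 0.23, 0.0083 and 0.18 for COX7A2 over COX7A2L, 0.52, 0.26 and 0.73 for UQCRHL over UQCRH, and 0.22, -0.14 and 0.12 for SCO1 over SCO2. The first 3 pairs thus had the same sign in 3 of 3 replicate numbers, where an exact sign-flip test cannot go below p = 0.25, the value each of them gave (adjusted p = 0.333), and SCO1 over SCO2 gave p = 0.75. For the tissue-restricted forms COX4I2, COX6A2, COX6B2, COX7A1, COX7B2, COX8C, COXFA4L2 and COXFA4L3 no probe was listed, so they were not compared.

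A wider list of 33 other genes for the same complexes was also examined, of which 15 were tested, with a median of 0.12 and 12 above 0. None of the 15 passed in limma without the block, where 0.437% of all genes were higher. At an unadjusted p under 0.05 by limma, 3 of 15 were higher and 0 lower, against 8.09% and 6.61% of all genes. UQCRHL passed with the block (adjusted p = 0.0268 by limma), where 1.35% of all genes were higher. HCCS, which attaches heme to cytochromes c and c1, was at 0.31 and OXA1L, the inner membrane insertase, at 0.24, both with P_DOX arrays wholly above M_DOX. COA8, UQCC5, CMC2, TMEM223, UQCC3 and UQCC6 lay between 0.12 and 0.23. SDHAF3 was at 0.08, FDX2 at 0.03, CMC1 at 0.003, TIMM21 at -0.04, TMEM177 at -0.10 and CEP89 at -0.21. For the mitochondrially encoded subunits no probe was listed. Beside these, the complex I subunits had a median of 0.21 with 33 of 33 above 0 and the ATP synthase subunits a median of 0.27 with 16 of 17 above 0. At an adjusted p under 0.05 by limma, 2 of 33 and 0 of 17 were higher, against 0.437% of all genes. P_DOX arrays lay wholly above in 63.6% and 76.5% of them, against 10.2% of all genes. The 23 members that are subunits or cytochrome c had a median of 0.35, with 3 called and 82.6% wholly above. They were not tested against complex I or ATP synthase subunits.

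Promoter sequences are shown for 6 members, since PGC1A acts through factors that bind DNA near such genes. They are CYCS, COX7B and COXFA4, which were called, SDHA and UQCC1, which passed with the block and hold repeated matches, and COX17, which holds matches and was flat. RefSeq promoter windows (GRCh38.p14, 250 bases before to 50 after the start) matched 48 of the 54 tested members, with none for COX11, COX6C, CYC1, SCO2, SDHC and UQCRB. The 250 bases before the start follow, 5′ to 3′ on the gene's strand, with matches on either strand to the NRF1 element, GCGCA and GCGC with any base between, in capitals. The windows of the called genes are chr7:25125261-25125510 (minus strand) for CYCS, chrX:77899218-77899467 (plus strand) for COX7B, chr7:10940154-10940403 (minus strand) for COXFA4. The others are chr5:218070-218319 (plus strand) for SDHA, chr20:35411974-35412223 (minus strand) for UQCC1, chr3:119677407-119677656 (minus strand) for COX17.
CYCS: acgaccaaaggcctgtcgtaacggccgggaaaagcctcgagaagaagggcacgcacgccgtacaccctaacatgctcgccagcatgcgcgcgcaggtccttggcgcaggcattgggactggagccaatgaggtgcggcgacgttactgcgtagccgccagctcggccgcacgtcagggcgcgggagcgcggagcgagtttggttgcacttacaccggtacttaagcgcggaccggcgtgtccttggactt
COX7B: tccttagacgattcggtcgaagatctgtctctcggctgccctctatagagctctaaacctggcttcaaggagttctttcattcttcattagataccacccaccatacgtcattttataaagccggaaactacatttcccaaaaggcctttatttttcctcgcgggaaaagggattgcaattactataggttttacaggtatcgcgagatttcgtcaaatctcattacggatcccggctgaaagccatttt
COXFA4: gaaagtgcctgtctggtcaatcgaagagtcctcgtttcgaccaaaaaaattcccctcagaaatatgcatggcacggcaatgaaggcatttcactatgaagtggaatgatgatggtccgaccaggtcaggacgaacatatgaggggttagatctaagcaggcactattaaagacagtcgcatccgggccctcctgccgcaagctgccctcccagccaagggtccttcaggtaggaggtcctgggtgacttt
SDHA: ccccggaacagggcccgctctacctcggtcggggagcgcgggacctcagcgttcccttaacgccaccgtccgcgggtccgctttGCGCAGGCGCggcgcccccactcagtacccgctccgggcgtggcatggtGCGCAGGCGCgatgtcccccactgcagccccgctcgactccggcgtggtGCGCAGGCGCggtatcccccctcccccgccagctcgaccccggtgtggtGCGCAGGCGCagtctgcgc
UQCC1: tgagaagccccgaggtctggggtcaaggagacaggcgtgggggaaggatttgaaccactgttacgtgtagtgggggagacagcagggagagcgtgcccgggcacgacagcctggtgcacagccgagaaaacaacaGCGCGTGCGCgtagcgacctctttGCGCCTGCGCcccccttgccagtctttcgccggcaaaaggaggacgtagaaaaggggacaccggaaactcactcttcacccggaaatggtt
COX17: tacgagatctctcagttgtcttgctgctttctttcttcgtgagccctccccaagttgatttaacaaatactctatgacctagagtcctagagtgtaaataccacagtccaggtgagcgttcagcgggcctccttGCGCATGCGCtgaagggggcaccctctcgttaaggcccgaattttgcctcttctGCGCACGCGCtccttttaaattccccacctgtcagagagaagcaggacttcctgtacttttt

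In the window before SDHA the NRF1 element stands 4 times, 49 bases apart, with its first base at -166, -117, -68 and -19 from the start. COX17 holds it at -116 and -62, and UQCC1 in the reverse orientation at -115 and -91. The windows of CYCS, COX7B and COXFA4 hold no exact match to the motifs searched. Sites that differ from a motif by a base or lie outside the window were not searched, so such sites may exist. Counting each window once and both strands, the NRF1 element was in 18.8% of the 48 member windows, against 12.9% of the windows of all genes tested and 6.28% of all 27305 windows. Of the subunit and cytochrome c windows 26.3% (5 of 19) held it, and of the assembly factors' windows 13.8% (4 of 29).

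Other motifs were rarer. The ETS element CCGGAAGTG, bound by GABPA among others, was in 14.6% of member windows, against 5.51% for all genes tested and 2.5% of all windows, and 6 of the 7 member windows with it belonged to assembly factors. The ERR element TNAAGGTCA was in the windows of SDHD and HIGD2A (4.17%), after the start in both, against 0.433% for all genes tested and 0.963% of all windows. No match overlapped a match to another motif. Among the members called with or without the block, 2 of the 9 with a window held the NRF1 element and 0 held the ETS or ERR element. Among the 39 others, 7 held the NRF1, 7 the ETS and 2 the ERR element. ESRRA, which encodes ERR-alpha, was at 0.50 (adjusted p = 0.0502 by limma, and 0.037 with the block). Its log2 signals were 8.50, 8.61 and 8.45 in P_DOX, against 8.01, 8.07 and 7.98 in M_DOX, without overlap.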

How the data were processed

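RNA from 3 P_DOX and 3 M_DOX samples was measured on bead arrays, 1 array per sample, grouped by title. The deposited table gives the intensity of 47231 probes on a linear scale, unscaled between arrays as far as the values show, and a deposited detection p-value per probe. The authors' deposited log2 values hold 17925 probes, and lumi is named, with no version, per the submitters' processing notes. These log2 columns equal the quantile-normalized log2 intensities of those probes. For scanner software and genome build, the sources used here name none, and the number of arrays limits the precision.

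Intensities were background-corrected by normexp with an offset of 16, quantile-normalized and log2-transformed by neqc of limma 3.58.1 in R 4.3.3. A filter kept the 15542 probes whose detection p was under 0.01 on 3 or more arrays. The platform annotation lists 13981 of the 17925 probes, 13977 of them with 1 gene and 4 with several, which name none here, and the other 3944 are unnamed here. Symbols were updated through Entrez numbers to RefSeq GRCh38.p14 (13970 matched). The brightest probe stood for each of 9841 genes. Groups were compared with lmFit and eBayes, two-sided, Benjamini-Hochberg over all genes, and scripts were tested on simulated data.

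Titles number the replicates 1 to 3 in each group. Deviations of same-numbered arrays from their group means correlated at 0.45, 0.52 and 0.30, all other pairs below 0. Such deviations sum to 0 within a group, so the negative values follow in part from the positive ones. The numbers were taken to pair the arrays, and the pairing comes from the data and not from a stated shared batch. The fit reported first has no block and the blocked fit is an alternative.

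The members, classes and lists were chosen with earlier results of these data known. Genes were named by rule, namely every called member, the largest rises and lowest changes in each class, members with several probes or a paralog, and each other gene tested of the pathway once to account for it. The alternatives were other background correction, scaling, values, probe filters, probe summaries, variance models, array weights, the block and leaving out each array. The files name no slide or scan.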

Additional observations from a re-analysis of the deposited data

How the results depend on the processing

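The count of members called higher was 3 and moved with the setting. It was 8 without background correction and 8 on the authors' deposited log2 table, 10 with the replicate block, and 15 with an intensity trend and 15 with array weights. It lay between 0 and 1 when 1 array was left out. Over all genes 43 were called higher, against 133 with the block and 159 with array weights, and from 1 to 7 with 1 array left out. It was 70 without background correction, 70 on the deposited table and 87 with an intensity trend. The deposited table, also without background correction, holds nearly the same values as the former setting. The number of members above 0 was 40 with 75th-percentile scaling and 45 to 48 in the other alternatives that count genes, against 47, and no alternative called a member lower. The CYCS value was 0.63 without background correction and 0.63 on the authors' deposited table. With 75th-percentile scaling the median was 0.30 for complex IV subunits and 0.30 for all subunits with cytochrome c, and 0.045 for complex IV assembly factors and 0.045 for all assembly factors. The median of all members ran from 0.19 to 0.28 with 1 array left out.

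No subunit changed sign in any alternative, and 17 other genes close to 0 did. The detection filters, single-probe fit, intensity trend and block left the subunits' changes as they were and could not turn a sign. With 75th-percentile scaling COA3 was at -0.012, COA5 at -0.029, COA7 at -0.034, COX15 at -0.041, COX16 at -0.010, COX17 at -0.060, PET100 at -0.016, CMC1 at -0.060 and FDX2 at -0.023. TIMM21 was at 0.12 with the mean of its probes, and COA7 at -0.023 and COX17 at -0.00092 with array weights. With 1 array left out the ranges that crossed 0 were -0.025 to 0.29 for BCS1L, -0.016 to 0.029 for CMC1, -0.057 to 0.0046 for COA4, -0.048 to 0.10 for COA5, -0.053 to 0.099 for COA7 and -0.0050 to 0.022 for COX17. They were -0.17 to 0.022 for COX19, -0.024 to 0.084 for FDX2, -0.024 to 0.12 for PET100, -0.067 to 0.010 for SDHAF1, -0.073 to 0.055 for SDHAF4 and -0.077 to 0.019 for SURF1. For TIMM21 the range was -0.072 to 0.0019, for TMEM177 -0.15 to 0.0050 and for SCO1 minus SCO2 -0.0058 to 0.17. The cause of these differences was not tested. With the replicate block, 10 members passed in place of 3 and no call was lost. A slide block was not run, since the files name no slide.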
